A study of Mus musculus with 24 samples.

Results

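The tetraspanins are small membrane proteins that cross the plasma membrane 4 times. Cd53 and 9 further members of the family that are known from leukocytes, Cd9, Cd37, Cd63, Cd81, Cd82, Cd151, Tspan3, Tspan31 and Tspan32, were followed through RNA sequencing of murine leukemia cells. The 10 genes were found by symbol among 41444 genes in each of the authors' tables. Cd53 was selected on measured values, since it had one of the largest falls with 4-hydroxytamoxifen (4-OHT) at both times of sampling, and the other 9 were taken because they belong to the family. Levels and differences of Cd53 between 4-OHT and ethanol (EtOH) are therefore given as a description, without a test, as is every contrast of Cd53 that uses that difference or the EtOH libraries.

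Tetraspanins have few ligands of their own. They bind each other and partner proteins such as integrins, immunoglobulin-superfamily receptors and proteases, and so arrange these partners in patches of the membrane. In B-lineage cells, Cd81 takes part in signalling by the B-cell receptor complex, Cd37 supports signalling by the integrin alpha4 beta1, and Cd53 has been linked in mice to protein kinase C recruitment and to interleukin-7 receptor signalling in B-cell precursors.

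The cells were B-cell acute lymphoblastic leukemia cells of mouse bone marrow that carried the BCR-ABL1 fusion oncogene, floxed Foxo1 alleles (Foxo1 fl/fl) and Cre-ERT2, a Cre recombinase that 4-OHT activates. The 24 libraries formed 8 groups of 3: 200 nM 4-OHT, EtOH as its vehicle, 70 nM of the FOXO1 inhibitor AS1842856, which the series also describes as a GSK3 inhibitor, and DMSO as its vehicle, each for 24 h and for 48 h. All groups carried the oncogene, the floxed alleles and Cre-ERT2, also those given AS1842856 or DMSO. No group had 4-OHT without floxed Foxo1, so that loss of Foxo1, Cre activity and 4-OHT itself cannot be told apart. Whether replicates came from separate cultures or from more than 1 cell line is not in the labels, so the p-values reflect the spread among 3 libraries, and this spread may be technical.

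All levels are the authors' log2 expression values, which are not counts, so that the depth of each library is unknown. Whether they are scaled by transcript length is not given, so they are used to compare a gene between libraries and not 1 gene with another. Library medians over the 11470 tested genes ran from 9.16 to 9.23. Foxo1, the targeted gene, stood at 7.99 to 8.27 with 4-OHT at 24 h against 9.80 to 9.88 with EtOH, and at 8.02 to 8.16 with 4-OHT at 48 h against 10.02 to 10.11 with EtOH. All 10 B-cell precursor markers were measured in every group, while the T and NK cell and erythroid lists had no tested gene and the 4 globin genes were listed at 0. In a principal component analysis, AS1842856 replicate 3 at 24 h and DMSO replicate 1 at 48 h stood apart from the other libraries of their groups. Most differences of the members that rest on them are also given without them. The markers, the related lists and the correlations are given with these libraries only.

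Promoter windows of 300 bases, running from 250 bases before to 50 bases after the annotated transcription start, were read from RefSeq on GRCm38.p6. All 10 genes matched, with 14 starts, since Cd82 and Cd151 have more than 1. Those of Cd53 and Cd37 are shown because Cd53 had the largest difference of the 9 tested genes and Cd37 is the other gene with a motif match close to its start, and those of Tspan32 and Cd81 because these genes are neighbours. They lie at chr3:106790100-106790399 on the minus strand (Cd53), chr7:45238790-45239089 on the minus strand (Cd37), chr7:143004796-143005095 on the plus strand (Tspan32) and chr7:143052500-143052799 on the plus strand (Cd81), each written 5′ to 3′ on the gene's own strand, with capitals for a match to a PU.1 and ETS motif.
Cd53: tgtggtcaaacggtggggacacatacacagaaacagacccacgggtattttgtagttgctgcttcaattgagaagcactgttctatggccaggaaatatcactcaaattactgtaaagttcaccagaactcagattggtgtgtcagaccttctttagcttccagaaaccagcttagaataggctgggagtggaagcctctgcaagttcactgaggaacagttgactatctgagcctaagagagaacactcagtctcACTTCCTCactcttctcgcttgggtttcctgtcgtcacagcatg
Cd37: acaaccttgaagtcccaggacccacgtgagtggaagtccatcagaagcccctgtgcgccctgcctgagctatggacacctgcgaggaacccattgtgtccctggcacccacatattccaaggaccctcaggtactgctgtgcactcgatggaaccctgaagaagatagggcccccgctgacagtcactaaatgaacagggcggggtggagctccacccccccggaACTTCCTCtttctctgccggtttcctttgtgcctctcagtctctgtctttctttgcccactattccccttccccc
Tspan32: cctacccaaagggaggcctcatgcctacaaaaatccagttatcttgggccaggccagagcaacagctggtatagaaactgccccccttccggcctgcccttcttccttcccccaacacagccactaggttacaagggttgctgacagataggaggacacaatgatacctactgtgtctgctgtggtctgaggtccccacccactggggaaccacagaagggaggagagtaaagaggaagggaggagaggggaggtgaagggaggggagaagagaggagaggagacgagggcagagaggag
Cd81: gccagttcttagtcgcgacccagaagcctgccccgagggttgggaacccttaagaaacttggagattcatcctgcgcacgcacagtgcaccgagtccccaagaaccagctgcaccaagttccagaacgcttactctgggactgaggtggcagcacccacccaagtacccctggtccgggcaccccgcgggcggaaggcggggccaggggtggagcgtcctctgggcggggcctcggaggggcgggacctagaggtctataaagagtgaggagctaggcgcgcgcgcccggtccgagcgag

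A set of 3 motifs was searched on both strands, after the sequences had been seen. The forkhead core GTAAACA, the binding motif of FOXO proteins, was in 0 of the 14 windows and in 3.65% of 32851 promoter windows of the same length in the genome. The related insulin response motif CAAAACA was in 0 of 14 windows and in 6.28% of all. The PU.1 and ETS motif GAGGAAGT, bound by transcription factors of blood cells, was in 3 of 14 windows and in 3.20% of all. Its matches lay 6 bases after the start in Cd53, 25 bases before it in Cd37 and 225 bases before 1 of the 4 starts of Cd82. The motifs do not overlap each other in these windows. A match is a stretch of letters and not a measured binding site.

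On GRCm38 with the GENCODE M21 annotation, all 10 are protein-coding genes. Cd53 (ENSMUSG00000040747) spans chromosome 3 from 106759921 to 106790149 on the minus strand. Tspan32 and Cd81 are neighbours on the plus strand of chromosome 7, with 33.1 kb between them and 0 annotated genes wholly inside that gap. Genes that overlap either of them and reach into the gap were not counted. Whether the authors counted by strand is not given in the sources used here. Genes that overlap are therefore uncertain. Tspan31 shares 641 bases with Cdk4, a cell-cycle kinase gene on the opposite strand, and Cd81 shares 948 bases with the opposite transcript R74862. Tspan32 shares 2988 bases with its antisense gene Tspan32os and Cd37 shares 13 bases with Tead2. Also on the opposite strand, Cd82 shares 10322 bases with Gm10804, Cd9 shares 3316 with Gm28809 and 368 with Gm26728, and Cd151 shares 380 with Gm10575. Gm10804 had an authors' mean of 0.06 and Gm10575 of 0.85, and neither was tested.

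Cd53 was the most variable of the 10 genes. Over the 24 libraries its log2 level ran from 9.03 to 12.05, a range of 3.02, while the range of the other 8 tested genes lay between 0.32 for Tspan3 and 1.60 for Cd82. At 24 h, Cd53 stood at 9.19, 9.03 and 9.09 with 4-OHT, against 11.29, 11.23 and 11.30 with EtOH. At 48 h it stood at 9.90, 9.84 and 9.73 with 4-OHT, against 11.88, 11.98 and 12.05 with EtOH. Every 4-OHT library lay more than 1 log2 unit below every other library of its time. The differences of -2.17 ± 0.05 at 24 h and -2.15 ± 0.06 at 48 h (log2, SE) ranked 6 and 2 from the lowest among 11470 genes. These values chose the gene and carry no test. In the authors' deposited table, whose fold changes are larger than differences of library values for these genes, the Cd53 level with 4-OHT was 0.0826-fold of EtOH at 24 h and 0.116-fold at 48 h, by their own fit.

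Cd53 with AS1842856 stayed near its level with DMSO. At 24 h it stood at 10.79, 10.47 and 10.80 with AS1842856, against 11.17, 10.75 and 10.72 with DMSO, and the groups overlapped. At 48 h it stood at 11.27, 11.01 and 11.07 with AS1842856, against 11.48, 11.25 and 11.23 with DMSO, again with overlap. The differences were -0.19 ± 0.14 at 24 h (limma, adjusted p = 1.00) and -0.20 ± 0.09 at 48 h (adjusted p = 0.252), and the 95% interval at 48 h ran from -0.41 to 0.01. Replicate numbers paired the libraries of this comparison at 48 h. In the fit with a replicate block, Cd53 passed with a difference of -0.20 ± 0.04 (limma, adjusted p = 0.0166). Without AS1842856 replicate 3 the 24 h difference was -0.25 (limma, adjusted p = 0.580), and without DMSO replicate 1 the 48 h difference was -0.12 (adjusted p = 0.363). The compound response minus the 4-OHT response of Cd53 was 1.98 ± 0.16 at 24 h and 1.95 ± 0.12 at 48 h, given without a test, or 1.92 without AS1842856 replicate 3 and 2.03 without DMSO replicate 1.

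Cd53 also differed between the times. In EtOH cells its level at 48 h minus that at 24 h was 0.70 ± 0.05, with no overlap. These EtOH libraries had also served in choosing the gene, so that no test is given. In DMSO cells the difference between 48 h and 24 h was 0.44 ± 0.12 and did not pass (limma, adjusted p = 0.413), although its libraries did not overlap, as for 17.4% of all genes. Without DMSO replicate 1 that difference was 0.37 (limma, adjusted p = 0.659). The 4-OHT response at 48 h minus that at 24 h was 0.02 ± 0.08, so that the level with 4-OHT was higher at 48 h by about as much as the level with EtOH. From low to high, the group means of Cd53 were 9.10 (4-OHT, 24 h), 9.82 (4-OHT, 48 h), 10.69 (AS1842856, 24 h), 10.88 (DMSO, 24 h), 11.12 (AS1842856, 48 h), 11.27 (EtOH, 24 h), 11.32 (DMSO, 48 h) and 11.97 (EtOH, 48 h). The 4-OHT groups and EtOH at 48 h were separate from their neighbours in this order, and each of the 5 groups between overlapped the next.

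**Figure D1:**
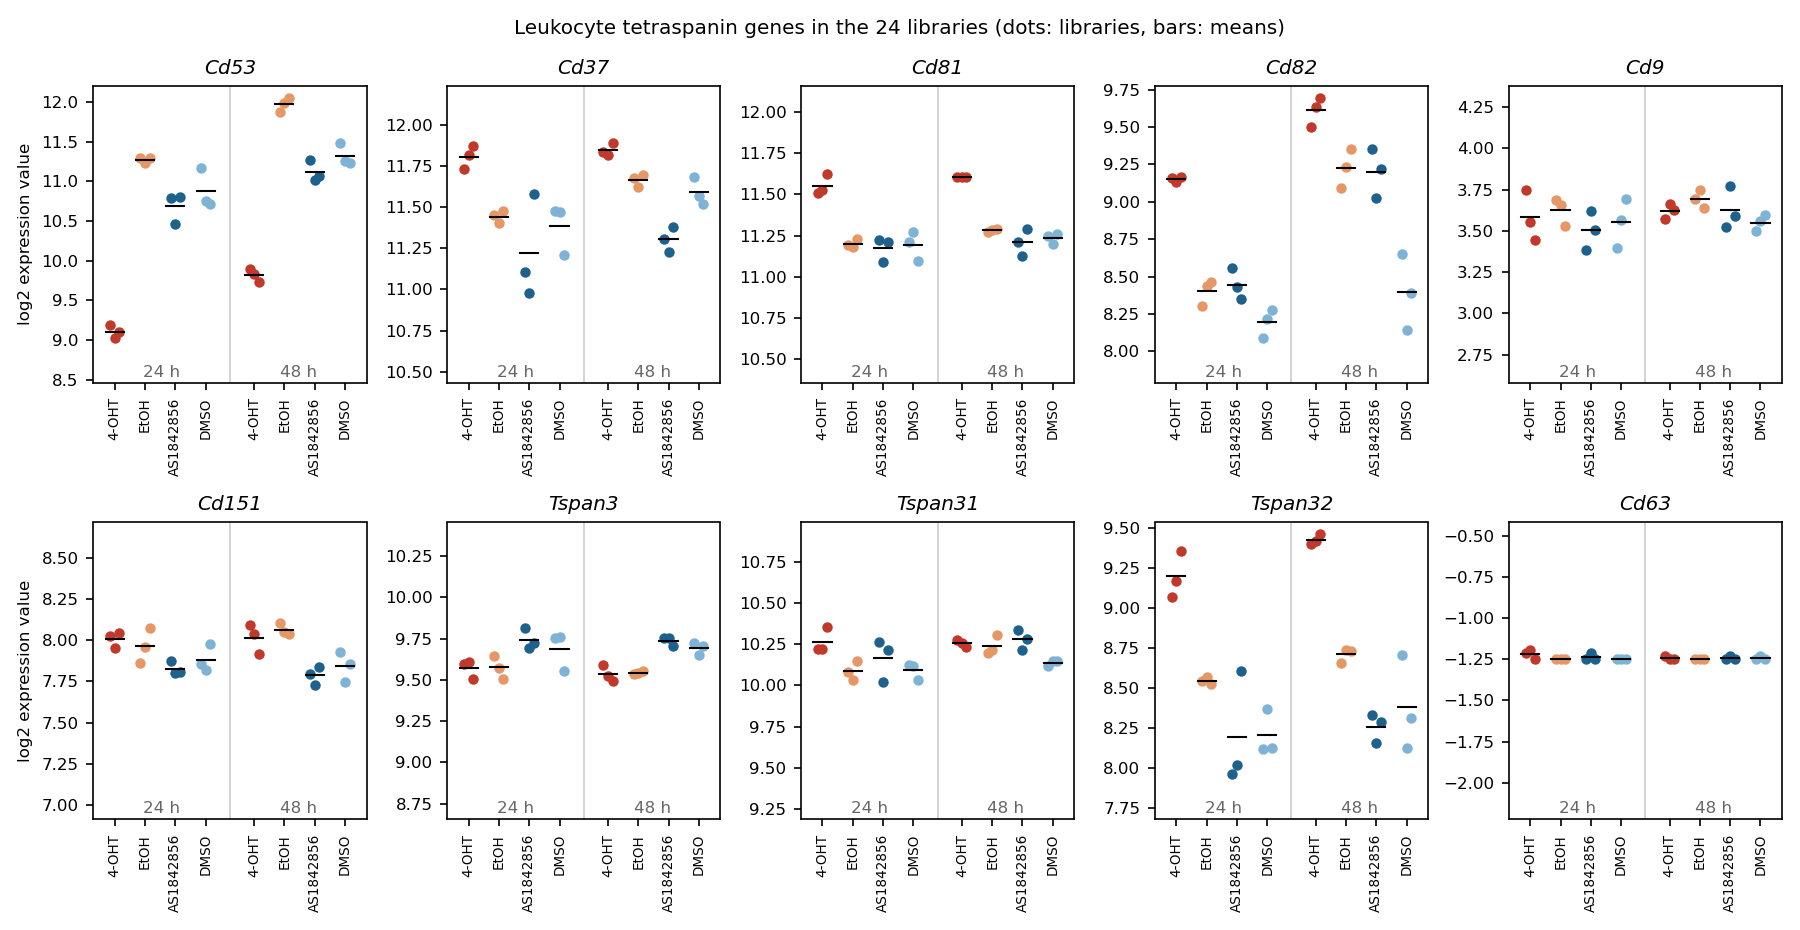
Log2 expression values of the 10 genes, with 1 dot per library and a bar for the mean of 3, in 8 groups of 3 libraries, on an axis of its own for each gene. Cd53 stands at 9.03 to 9.90 in the 6 libraries with 4-OHT, below all other libraries, while Cd37, Cd81, Cd82 and Tspan32 lie higher with 4-OHT than with EtOH at each time.

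Among the other tested family members, 5 of 8 rose with 4-OHT at 24 h (Cd37, Cd81, Cd82, Tspan31 and Tspan32) and none fell. Of all 11470 tested genes, 29.5% were called at 24 h, and 15.7% were called higher and 13.7% lower. At 48 h, 4 of the 8 rose (Cd37, Cd81, Cd82 and Tspan32) and none fell, with 50.8% of all genes called, 25% higher and 25.8% lower. The 4-OHT and EtOH libraries did not overlap for the same 5 of 8 genes at 24 h, against 45.9% of all genes. At 48 h they did not overlap for the same 4 of 8, against 59.8%. Cd53 is left out of these counts, since it was chosen on this comparison. The median difference over the 9 genes, with the selected Cd53 among them, was 0.17 at 24 h and 0.02 at 48 h, against -0.0020 and 0.0054 over all genes tested.

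The signalling tetraspanins of B cells, Cd37 and Cd81, were both higher with 4-OHT. Cd37, whose loss in mice leads to B-cell lymphoma, stood at 11.73, 11.81 and 11.87 with 4-OHT at 24 h, against 11.45, 11.40 and 11.47 with EtOH. It rose by 0.36 ± 0.04 (limma, adjusted p = 5.02e-04). At 48 h Cd37 stood at 11.83, 11.81 and 11.89 with 4-OHT, against 11.67, 11.62 and 11.70 with EtOH. That rise was 0.18 ± 0.03 (limma, adjusted p = 0.00218), and it did not pass in 1 model of all 8 groups (adjusted p = 0.154) or in the authors' deposited table (adjusted p = 0.198). The rise at 48 h was smaller than at 24 h by 0.18 ± 0.06 (limma, adjusted p = 0.0453), a call that held in 3 of 12 fits that each left out 1 library.

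Cd81 stood at 11.51, 11.53 and 11.62 with 4-OHT at 24 h, against 11.19, 11.18 and 11.23 with EtOH. At 48 h it stood at 11.60, 11.61 and 11.61 with 4-OHT, against 11.27, 11.29 and 11.29 with EtOH. Cd81 rose by 0.35 ± 0.04 and 0.32 ± 0.03 at these times (limma, adjusted p = 3.71e-04 and 2.46e-05). The opposite transcript R74862 differed by 0.05 ± 0.09 and -0.03 ± 0.10 in the same comparisons and did not pass.

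Tspan32, a leukocyte tetraspanin that restrains T-cell proliferation in mice, lies next to Cd81 and rose with it. It stood at 9.07, 9.17 and 9.36 with 4-OHT at 24 h, against 8.54, 8.57 and 8.53 with EtOH. At 48 h it stood at 9.40, 9.42 and 9.46 with 4-OHT, against 8.66, 8.74 and 8.73 with EtOH. The groups did not overlap at either time, and Tspan32 rose by 0.65 ± 0.07 and 0.72 ± 0.05 (limma, adjusted p = 4.26e-04 and 6.46e-06).

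Cd82, known as a suppressor of metastasis in human tumours, stood at 9.16, 9.13 and 9.17 with 4-OHT at 24 h, against 8.30, 8.43 and 8.47 with EtOH. It rose by 0.75 ± 0.06 (limma, adjusted p = 5.63e-05). At 48 h it stood at 9.50, 9.64 and 9.69 with 4-OHT, against 9.09, 9.23 and 9.35 with EtOH, a rise of 0.39 ± 0.08 (limma, adjusted p = 0.00259). The rise was smaller at 48 h by 0.37 ± 0.10 (limma, adjusted p = 0.0263). Cd82 and Cd37 were the 2 of 8 genes besides Cd53 whose 4-OHT response changed with time, with 15.6% of all genes called in that contrast and 9.03% called with a lower response at 48 h. The Cd82 call held in 8 of 12 fits that each left out 1 library.

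The remaining members moved little with 4-OHT. Tspan31 rose by 0.17 ± 0.05 at 24 h (limma, adjusted p = 0.0345), a call that held in 2 of 6 fits that left out a library, and differed by 0.02 ± 0.04 at 48 h (adjusted p = 0.753). The overlapping Cdk4 differed by -0.07 ± 0.03 at 24 h (limma, adjusted p = 0.187) and fell by 0.18 ± 0.06 at 48 h (adjusted p = 0.0255). Cd151, which binds laminin-binding integrins, had differences of 0.04 ± 0.07 at 24 h and -0.05 ± 0.07 at 48 h. Tspan3, linked in mice to the maintenance of acute myeloid leukemia, had differences of -0.01 ± 0.05 and -0.01 ± 0.04. Cd151 and Tspan3 passed at neither time (limma, adjusted p from 0.587 to 0.947).

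Cd9 and Cd63 were measured poorly. Cd9, which works in cell adhesion and fusion, had an authors' mean of 3.74, just above the minimum of 3.46, and its libraries ran from 3.39 to 3.77 with overlap between every treated group and its vehicle. Its 4-OHT differences of -0.04 ± 0.09 and -0.07 ± 0.06 did not pass (limma, adjusted p = 0.763 and 0.380). Cd63, a marker of late endosomes and exosomes, had an authors' mean of 0.50, below the minimum, with libraries between -1.25 and -1.19, and was not tested. That mean lies outside the range of the libraries, so the mean column and the library columns are not on the same scale.

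The myeloid markers that were tested, Lyz2, Csf1r and Cx3cr1, 3 of 11 on the list, all rose with 4-OHT at both times. The summed level of the list was 7.57 to 7.67 with 4-OHT at 24 h, against 6.70 to 6.95 with EtOH, and 7.73 to 7.91 with 4-OHT at 48 h, against 6.82 to 7.14 with EtOH. Elane, Ly6g, S100a8 and S100a9 were listed at 0. Of the 7 stromal and endothelial markers only Pecam1 was tested, and it rose with 4-OHT at both times while Kdr was listed at 0. Pecam1 had an authors' mean of 10.10, and no other marker of that list had a mean above 1.17 (Pdgfrb). The summed level of that list is therefore nearly that of Pecam1 alone. The summed level of that list was 10.25 to 10.33 with 4-OHT at 24 h, against 9.69 to 9.70 with EtOH, and 10.63 to 10.71 with 4-OHT at 48 h, against 9.36 to 9.51 with EtOH. The T and NK list had no tested gene, with Cd4 and Ncr1 listed at 0. It summed to 5.05 to 5.15 with 4-OHT at 48 h, against 4.71 to 4.76 with EtOH. At 24 h its sums overlapped, at 4.75 to 4.86 with 4-OHT against 4.75 to 4.77 with EtOH. Of that list Cd3g, below the filter, varied most over the libraries, so the difference at 48 h may rest largely on this gene. Of the 10 B-cell precursor markers, 3 rose and 6 fell with 4-OHT at 24 h, and 4 rose and 3 fell at 48 h. Their summed level was 15.91 to 15.97 with 4-OHT at 24 h, against 15.97 to 16.01 with EtOH, and 16.06 to 16.11 with 4-OHT at 48 h, against 15.82 to 15.93 with EtOH. The part of all these markers in the rises of Cd37, Cd81, Cd82 and Tspan32 was not tested. In bulk libraries, more cells of a type and more RNA per cell cannot be told apart.

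**Figure D2:**
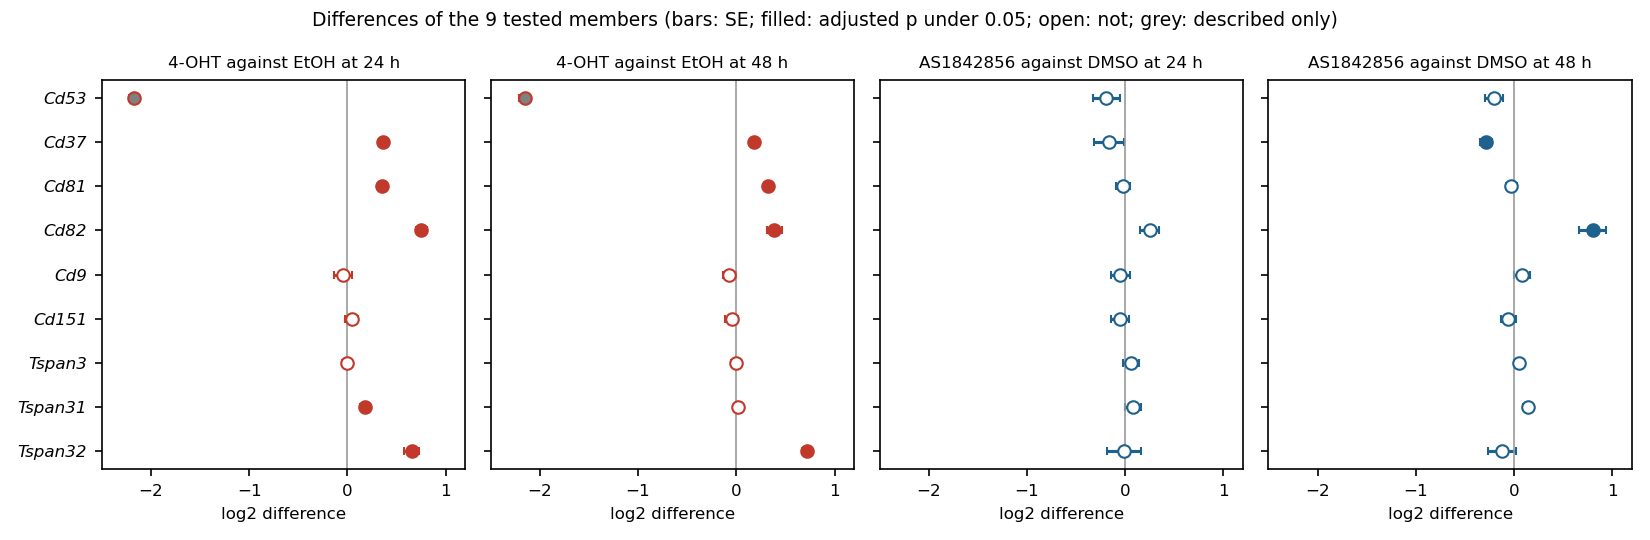
Differences of log2 expression values (x axis) for the 9 tested genes, 4-OHT minus EtOH and AS1842856 minus DMSO at 24 h and 48 h, with bars for the SE from limma with 3 libraries in each group. Filled points passed at adjusted p under 0.05, open points did not, and grey points are Cd53 values given without a test. Cd53 lies at -2.17 and -2.15 with 4-OHT, and Cd82 has the highest point with AS1842856, 0.80 at 48 h.

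With AS1842856 at 24 h, 0 of 9 genes passed in limma, 1 had an unadjusted p under 0.05 and 0 had an adjusted p under 0.05 in the authors' deposited table, and 0.00872% of all genes, a single gene, were called. Without AS1842856 replicate 3, again 0 of 9 passed. Cd82 was the 1 gene of 9 whose libraries did not overlap, against 6.32% of all genes, at 8.55, 8.43 and 8.35 with AS1842856 against 8.09, 8.22 and 8.28 with DMSO. For Cd37 and Tspan32, replicate 3 of AS1842856 was the highest compound library, at 11.58 and 8.60, with the others at 11.11 and 10.98 for Cd37 and at 7.96 and 8.02 for Tspan32. The difference of Cd37 was -0.16 ± 0.15, or -0.34 without that library (limma, adjusted p = 1.00 and 0.312). Tspan32 differed by -0.01 ± 0.18, or -0.22 without it (adjusted p = 1.00 and 0.529). Without it Cd82 differed by 0.30 (adjusted p = 0.383), and the other 5 tested genes by -0.05 to 0.07.

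At 48 h, 2 of 9 genes passed with AS1842856, 1 higher and 1 lower, with 4.86% of all genes called, 1.88% higher and 2.97% lower. The libraries did not overlap for 3 of 9, against 26.9% of all genes. Cd82 stood at 9.35, 9.02 and 9.22 with AS1842856, against 8.65, 8.15 and 8.39 with DMSO. It rose by 0.80 ± 0.14 (limma, adjusted p = 0.0242), and with the replicate block its adjusted p was 0.00143. Cd37 stood at 11.30, 11.23 and 11.38 with AS1842856, against 11.68, 11.57 and 11.52 with DMSO, and fell by 0.28 ± 0.06 (limma, adjusted p = 0.0450). With the replicate block the adjusted p of Cd37 was 0.0181. Without DMSO replicate 1 the differences were 0.93 for Cd82 (limma, adjusted p = 0.0102) and -0.24 for Cd37 (adjusted p = 0.0487). Leaving out any of the other 5 libraries ended both calls, with adjusted p from 0.0502 to 0.112 for Cd82 and from 0.0884 to 0.144 for Cd37. In the authors' deposited table the adjusted p was 3.87e-10 for Cd82, 2.32-fold higher with AS1842856, and 0.0571 for Cd37.

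The third gene without overlap at 48 h was Tspan31, with a difference of 0.14 ± 0.05 (limma, adjusted p = 0.178). Cd81 differed by -0.02 ± 0.07 at 24 h and -0.03 ± 0.05 at 48 h, with a 95% interval of -0.15 to 0.10 at 48 h. At 48 h Tspan32 differed by -0.12 ± 0.14, with a 95% interval of -0.46 to 0.21. Without DMSO replicate 1 the 48 h differences were 0.13 for Tspan31, -0.02 for Cd81 and 0.04 for Tspan32, and none passed. Cd9, Cd151 and Tspan3 had differences between -0.06 and 0.08 at both times, and none passed. Of the 10 B-cell precursor markers, 6 fell with AS1842856 at 48 h, with a summed level of 15.61 to 15.70 with AS1842856 against 15.93 to 16.05 with DMSO, and their part in these results was not tested. The 3 tested myeloid markers did not pass in this comparison.

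The responses to the compound and to 4-OHT were compared directly in 1 model of the 4 groups of each time. At 24 h the compound response was lower for Cd82, by -0.50 ± 0.11, and for Cd81, by -0.37 ± 0.08 (limma, adjusted p = 0.0164 and 0.0168), which makes 2 of the 8 genes besides Cd53, with 6.1% of all genes called and 4.15% called lower. The same contrasts for Cd37 and Tspan32 were -0.53 ± 0.18 and -0.67 ± 0.21 (limma, adjusted p = 0.104 and 0.0826). Without AS1842856 replicate 3 these became -0.70 and -0.87 and passed (limma, adjusted p = 0.00123 and 0.00121), which made 4 of the 8 genes, with 17.8% of all genes called in that fit. Cd82 and Cd81 were then at -0.46 and -0.39 and passed as well. At 48 h the compound response was lower for Cd37, by -0.47 ± 0.07, for Cd81, by -0.35 ± 0.06, and for Tspan32, by -0.84 ± 0.16 (limma, adjusted p = 3.95e-04, 7.46e-04 and 0.00160), 3 of the 8 genes, with 37.1% of all genes called and 19.1% called lower. Without DMSO replicate 1 these were -0.42, -0.34 and -0.68, and all 3 passed.

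Cd37 thus passed in opposite directions at 48 h, higher with 4-OHT and lower with AS1842856, and the contrast of the 2 responses passed as well. Neither single call was present in the authors' deposited table (adjusted p = 0.198 and 0.0571). Both were also lost in 1 model of all 8 groups (limma, adjusted p = 0.154 and 0.0785). The 4-OHT call held in 6 of 6 fits that left out a library, and the AS1842856 call in 1 of 6. Cd82 was higher with both agents at 48 h, and its compound response exceeded its 4-OHT response by 0.42 ± 0.17, which did not pass (limma, adjusted p = 0.0750). Without DMSO replicate 1 that contrast was 0.55 (limma, adjusted p = 0.0117).

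The vehicle groups differed for some of these genes. At 48 h, DMSO cells held less Cd82 than EtOH cells, by -0.83 ± 0.13 (limma, adjusted p = 0.00651), 1 of 8 genes besides Cd53, with 21.6% of all genes called and 11.2% called lower. Without DMSO replicate 1 the Cd82 difference was -0.96, and 4 of the 8 genes passed, with 34.4% of all genes called in that fit. At 24 h, 0 of the 8 passed in limma and 2 had an unadjusted p under 0.05, with 2.85% of all genes called. The Cd53 level with DMSO minus that with EtOH was -0.39 ± 0.11 at 24 h and -0.65 ± 0.08 at 48 h, or -0.73 at 48 h without DMSO replicate 1, given without a test since these EtOH libraries served in choosing the gene. The mean of Cd82 at 48 h was 9.20 ± 0.16 with AS1842856 and 8.40 ± 0.25 with DMSO, beside 9.61 ± 0.10 with 4-OHT and 9.23 ± 0.13 with EtOH (SD, n = 3 each). The AS1842856 and EtOH libraries of Cd82 overlapped at that time.

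In EtOH cells 4 of the 8 genes besides Cd53 rose at 48 h relative to 24 h, with 25.4% of all genes called and 13.4% called higher. They were Cd82, by 0.83 ± 0.08, Cd37, by 0.22 ± 0.03, Tspan32, by 0.16 ± 0.05, and Tspan31, by 0.15 ± 0.05 (limma, adjusted p from 8.70e-04 to 0.0491). Among the 8, the libraries of these 4 genes and of Cd81 did not overlap between the times, as for 44.5% of all genes. Tspan32 and Tspan31 lost their calls in 5 and 4 of the 6 fits without 1 library. In DMSO cells 0 of 9 passed in limma, 2 had an unadjusted p under 0.05, and 0.00872% of all genes were called. Cd82 differed there by 0.20 ± 0.13, or 0.07 without DMSO replicate 1 (limma, adjusted p = 0.604 and 0.919). The compound response did not differ detectably between 48 h and 24 h, with 0 of 9 genes passing in limma, 1 at an unadjusted p under 0.05 and 0.00872% of all genes called. That 1 was Cd82, with a difference of 0.55 ± 0.18 between its responses (limma, adjusted p = 1.00), or 0.68 without DMSO replicate 1 and 0.51 without AS1842856 replicate 3 (adjusted p = 0.518 and 0.999). Whether the time effects differed between the vehicles was not tested.

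**Figure D3:**
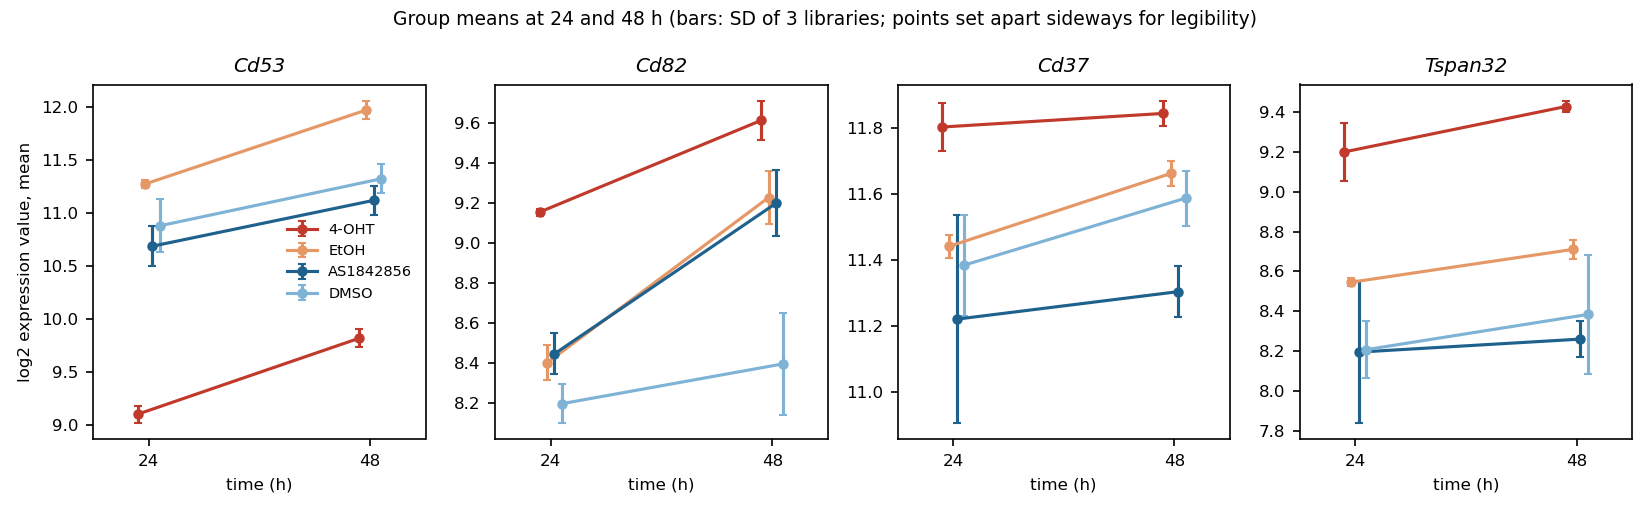
Group means of the log2 expression values of Cd53, Cd82, Cd37 and Tspan32 (y axis) at 24 h and 48 h (x axis), with bars for the SD of 3 libraries. Cd53 is higher at 48 h than at 24 h in each treatment, and Cd82 at 48 h stands at 9.20 with AS1842856, near the 9.23 with EtOH and above the 8.40 with DMSO.

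Likeness to Cd53 over the 24 libraries was ranked only for tested genes in the upper part of the range of levels. Genes with provisional names were left out as well. The highest in this ranking was Mycn, a transcription factor of the MYC family, with Pearson r = 0.954. Arap2, a regulator of small GTPases (0.948), and Arhgap15, another such regulator (0.929), came next. Cisd1, a mitochondrial iron-sulfur protein (0.913), and Tapt1, a transmembrane protein (0.910), followed. The 4-OHT libraries form a cluster of their own, and these values hold the fall with 4-OHT as well. Over the 18 libraries without 4-OHT the values were 0.883 for Mycn, 0.808 for Arap2, 0.808 for Arhgap15, 0.653 for Cisd1 and 0.672 for Tapt1. Among the family, Cd37 had r = -0.378 with Cd53 over 24 libraries and 0.765 over those 18. Cd81 had -0.726 and 0.630, Tspan32 had -0.592 and 0.735, and Cd82 had -0.332 and 0.576. Cd151 had -0.148 and 0.637, Tspan31 had -0.247 and 0.386, and Cd9 had 0.1004 and 0.286. Tspan3 had 0.223 over the 24 libraries and -0.555 over the 18. These correlations are descriptions over libraries that share vehicle, time and treatment, and carry no test.

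Of 21 further tetraspanin genes, 8 passed the filter on low values, and Tspan1 and Tspan11 were listed at 0. With 4-OHT 2 of the 8 rose and 1 fell at 24 h, and 4 rose and 2 fell at 48 h, with 29.5% and 50.8% of all genes called at these times. With AS1842856 none passed in limma, with 0 and 1 at an unadjusted p under 0.05 at 24 h and 48 h. Of all genes, 0.00872% and 4.86% were called in these comparisons. Tspan2, a tetraspanin of the myelin-forming cells of the nervous system, rose by 0.82 ± 0.06 and 1.48 ± 0.07 with 4-OHT (limma, adjusted p = 3.66e-05 and 7.07e-07). Tspan14, which brings the protease Adam10 to the surface, rose by 0.18 ± 0.04 and 0.26 ± 0.03 (limma, adjusted p = 0.0104 and 2.64e-04). Tspan5, another Adam10 partner, and Tspan4 fell at 48 h, by 0.33 ± 0.05 and 0.37 ± 0.06 (limma, adjusted p = 6.57e-04 and 8.80e-04). Rom1, known from photoreceptors, rose by 0.33 ± 0.09 at 48 h, and Tspan18 fell by 0.30 ± 0.08 at 24 h (limma, adjusted p = 0.0105 and 0.0223). The median difference of these 8 genes with 4-OHT was 0.11 at 24 h and 0.14 at 48 h, against -0.0020 and 0.0054 over all genes tested.

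Of 25 genes for known tetraspanin partners, 22 were tested, among which 6 rose and 4 fell with 4-OHT at 24 h and 8 rose and 4 fell at 48 h, again beside 29.5% and 50.8% of all genes. The median difference was 0.05 at each time. With AS1842856 none passed in limma, with 0 and 6 at an unadjusted p under 0.05 at 24 h and 48 h. Of all genes, 0.00872% and 4.86% were called in these comparisons. At 48 h the libraries did not overlap for 6 of the 22 partners, against 26.9% of all genes. Itga4, the alpha4 integrin chain that works with Cd37, fell by 0.92 ± 0.08 at 24 h and 0.66 ± 0.04 at 48 h (limma, adjusted p = 8.09e-05 and 5.34e-06). Itgb1, the beta1 chain that pairs with it, differed by -0.06 ± 0.03 at 24 h (limma, adjusted p = 0.152) and fell by 0.12 ± 0.03 at 48 h (adjusted p = 0.0186). Itga6, the alpha6 chain, differed by -0.09 ± 0.07 and 0.05 ± 0.06 and did not pass (adjusted p = 0.353 and 0.582). These chains were named after their values were seen. Itgal, the alpha chain of LFA-1, rose by 1.04 ± 0.05 and 0.71 ± 0.07, and its partner chain Itgb2 by 0.44 ± 0.07 and 0.79 ± 0.06 (limma, adjusted p from 6.80e-06 to 0.00228).

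Itgb7, the beta7 chain, rose by 0.47 ± 0.06 and 0.78 ± 0.10 with 4-OHT at 24 h and 48 h (limma, adjusted p = 7.02e-04 and 2.04e-04). Its level was low, with an authors' mean of 4.18 and libraries from 3.53 to 4.66. Ifitm1, an interferon-induced membrane protein found with Cd81 in B cells, rose by 1.36 ± 0.13 and 1.18 ± 0.06 (limma, adjusted p = 1.73e-04 and 1.78e-06). Cd2, an adhesion receptor found with Cd53 in rat lymphocytes, rose by 0.52 ± 0.09 and 0.34 ± 0.08 (limma, adjusted p = 0.00382 and 0.00721). The same myeloid and Pecam1 values given above accompany these rises. With AS1842856 at 48 h, Itgal differed by 0.47 ± 0.12 and Itga4 by -0.11 ± 0.05, and neither passed (limma, adjusted p = 0.0725 and 0.231).

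**Figure D4:**
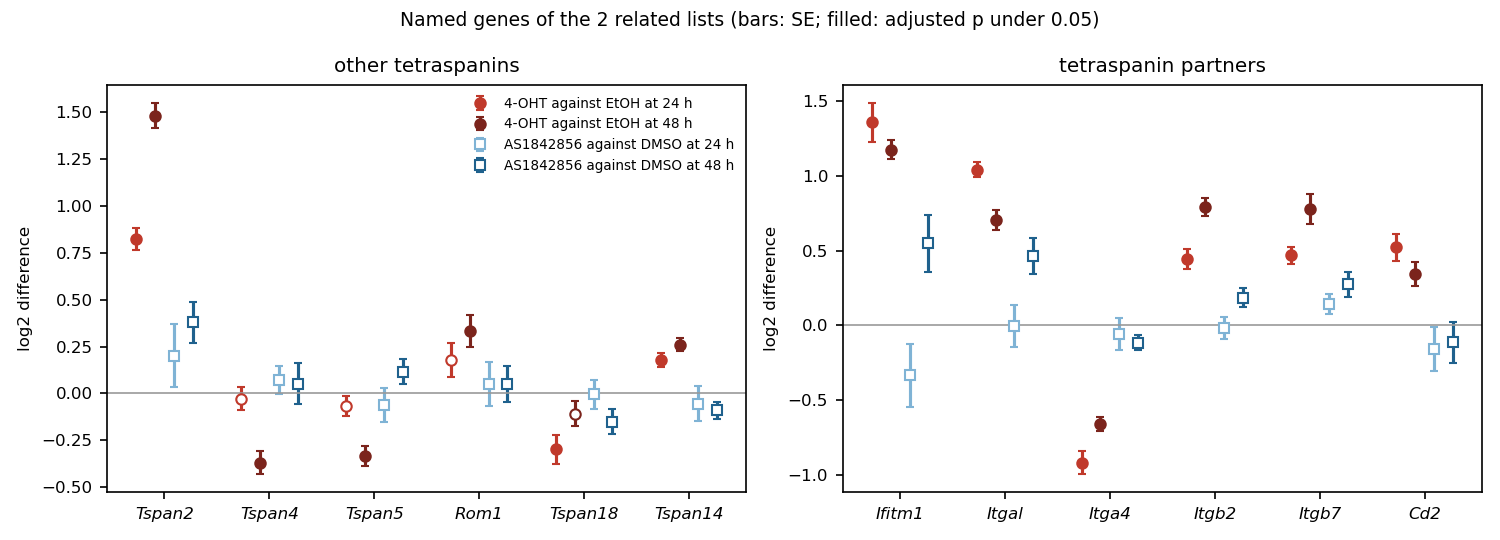
Differences of log2 expression values (y axis) for the 6 named genes of the further tetraspanins and of the tetraspanin partners, 4-OHT minus EtOH (circles) and AS1842856 minus DMSO (squares) at 24 h and 48 h, with bars for the SE. Filled symbols passed at adjusted p under 0.05. Tspan2 reaches 1.48 and Ifitm1 1.36 with 4-OHT, Itga4 lies at -0.92 and -0.66, and no AS1842856 symbol is filled.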

How the data were processed

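RNA sequencing of 24 libraries in 8 groups of 3 was analysed from the authors' 4 tables, and groups and replicate numbers came from the labels. The mouse build mm10, DESeq2 1.44.0, Salmon 1.1.1 and STAR 2.7.11b are named, without a role, per the submitters' processing notes. Per-library, mean and fold change columns are the authors' log2 values, with a normalisation that the file headers do not give. The mean column is not on the scale of the library columns, and it served to filter genes and not in the fits. Per the file headers, each table adds a deposited p-value, raw and adjusted, and a deposited test score.

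Genes with an authors' mean of at least 3.46, which is 10 normalised counts if that column is the log2 of a count plus 1, were kept. This left 11470 of 41444 genes. limma 3.58.1 in R 4.3.3 with a trended variance was fitted to the groups compared, with Benjamini-Hochberg adjustment over all kept genes and calls at adjusted p under 0.05. Counts at an unadjusted p under 0.05 are given without the share of all genes at that p, so no result is read from them. Intervals are 95% intervals from the same fits. The fitting was tested on simulated data drawn independently for each gene and library. That simulation held no libraries that stand apart and no pairing by replicate number, so it cannot speak to their effects. Errors after ± are standard errors unless marked SD. Summed marker levels are the log2 of summed linear values. Figures used matplotlib 3.10.9.

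The members and lists were chosen with earlier results of these data known. All members were named, with up to 6 genes of each related list that had the largest called difference in a treatment comparison. The 5 genes most correlated with Cd53, among tested genes of higher level without provisional names, were named too. Same-numbered libraries deviated together with AS1842856 and DMSO at 48 h, with correlations of 0.147 to 0.409, and that comparison is also given with the replicate number as a block. Numbers did not pair the libraries of the other comparisons. Alternatives were other filters, normalisations and variance models, an added pseudocount, 1 model of all 8 groups, the block and leaving out each library. Depth is unknown, since the values are not counts. Some genes of these lists are not reported here.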

Additional observations from a re-analysis of the deposited data

Results flagged for a closer look

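The 4-OHT response of 2 members differed between the times, by a contrast within 1 model of the 4-OHT and EtOH groups. The response at 48 h minus that at 24 h was -0.37 ± 0.10 for Cd82 and -0.18 ± 0.06 for Cd37 (limma, adjusted p = 0.0263 and 0.0453). These calls held in 8 of 12 fits that each left out 1 library for Cd82, and in 3 of 12 for Cd37. In 1 model of all 8 groups neither gene passed (limma, adjusted p = 0.1745 and 0.528). The Cd82 difference from EtOH was 0.75 at 24 h and 0.39 at 48 h, and the Cd37 difference was 0.36 and 0.18. In each gene the EtOH level was higher at 48 h than at 24 h, by 0.83 for Cd82 and 0.22 for Cd37, while all 3 libraries with 4-OHT stayed above all 3 with EtOH at each time.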

How the results depend on the processing

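The counts of members called changed with some settings. They include Cd53, also where its difference is given without a test and its part in the count supports nothing. With 4-OHT at 48 h the count was 5, and 3 under a stricter filter that left out members below the median. With AS1842856 at 48 h it was 2, and it was 0 without a filter, 1 under the stricter filter, under quantile normalization, without a variance trend and in 1 model of all 8 groups, and 3 with the replicate block. For the compound response minus the 4-OHT response at 24 h it was 3, and 5 in 1 model of all 8 groups. For the 4-OHT response at 48 h minus 24 h it was 2, and it was 0 without a filter and in 1 model of all 8 groups, and 1 under the stricter filter, with equal medians, under quantile normalization and without a variance trend. For EtOH at 48 h against 24 h it was 5, with 3 under the stricter filter and with equal medians, 2 in 1 model of all 8 groups and 4 with the block. For DMSO at 48 h against 24 h it was 0, and 1 in 1 model of all 8 groups. For DMSO against EtOH it was 0 at 24 h, with 1 under the stricter filter and in 1 model of all 8 groups, and 2 at 48 h, with 1 and 4 under these settings. The cause was not tested, beyond the fewer members that the stricter filter leaves. Leaving out 1 library gave 5 to 6 (4-OHT, 24 h), 5 (4-OHT, 48 h), 0 (AS1842856, 24 h), 0 to 2 (AS1842856, 48 h), 2 to 5 and 4 to 5 (compound minus 4-OHT response, 24 h and 48 h), 0 to 2 (4-OHT response, 48 h minus 24 h), 0 (compound response, 48 h minus 24 h), 3 to 5 (EtOH over time), 0 (DMSO over time), and 0 to 1 and 2 to 5 (DMSO against EtOH, 24 h and 48 h).

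The replicate block changed 1 further member call besides that of Cd53 with AS1842856 at 48 h: Tspan32 in EtOH cells at 48 h against 24 h had an adjusted p of 0.0725 with the block. Over 66 member differences and 985 settings, 885 were unchanged, 63 lost a call, 15 gained one and 22 changed sign. Unchanged means the same direction and the same side of the threshold. For contrasts of Cd53 with 4-OHT it means the same direction and a shift below the SD within groups. Differences of Cd53 between the vehicles and between the EtOH times were counted by their calls, although they carry no test here. The sign changes fell in 13 differences, none of them called and none larger than 0.12. Cd151 with 4-OHT at 24 h was -0.0027 under quantile normalization and Tspan3 with 4-OHT at 48 h was 0.0077 with equal medians. The others came from leaving out 1 library. With 4-OHT they gave -0.0094 to 0.0955 (24 h) and -0.0880 to 0.0013 (48 h) for Cd151, -0.126 to 0.0271 (24 h) for Cd9, -0.0034 to 0.0506 (48 h) for Tspan31, and -0.0403 to 0.0293 (24 h) and -0.0335 to 0.0149 (48 h) for Tspan3. The Cd53 response at 48 h minus 24 h was -0.0293 to 0.0646. With AS1842856 they gave -0.0690 to 0.0209 (24 h) and -0.0680 to 0.0149 (48 h) for Cd81, -0.217 to 0.104 (24 h) and -0.252 to 0.0391 (48 h) for Tspan32, -0.126 to 0.0224 (24 h) for Cd9 and -0.0130 to 0.0904 (24 h) for Tspan3. Depth is unknown, so no counting error can be given. Cd63 lay below the filter and was not tested.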
